A study of Mus musculus with 4 samples.

Results

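The genes described here are 10 ligands of the tumour necrosis factor (TNF) superfamily, Tnf, Lta, Ltb, Tnfsf4, Tnfsf8, Tnfsf9, Tnfsf10, Tnfsf14, Tnfsf15 and Fasl, out of 19938 genes that the probe annotation names singly. They were chosen by name, and each had 1 probe. The cells were bone-marrow-derived macrophages of female BalbC mice, grown out of marrow in L929-conditioned medium, which supplies macrophage colony stimulating factor. The 4 groups were Control (no agent), LPS (lipopolysaccharide, 10 ng/ml), LPS/zVAD (LPS with the caspase inhibitor zVAD, 50 µM) and LPS/zVAD/Nec-1 (the same with the RIPK1 inhibitor Nec-1, 30 µM). All 4 share strain, sex and culture. The sources used here do not give the treatment times, the number of mice or the number of living cells at harvest.

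TNF superfamily ligands are mostly trimeric proteins of the cell surface, some of which are shed as soluble cytokines. They bind receptors of the TNF receptor superfamily, which recruit adaptor proteins and switch on NF-kB and MAP kinases or, through death domains, caspases and the kinase RIPK1. In macrophages, LPS acts through the receptor TLR4, and Tnf is a classical early product of that response. When caspases are blocked, RIPK1 kinase signalling downstream of death receptors or TLR4 can lead to necroptosis, a lytic form of cell death. The arrays set the inflammatory response with and without an inhibitor of that kinase side by side.

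Each group had 1 Affymetrix array, so no value has a replicate check, no test could be made, and precision is limited by how few arrays there are. Values are the deposited gene-level log2 signals, or differences of them between 2 arrays (log2 ratios). Where 4 signals stand in a row, their order is Control, LPS, LPS/zVAD, then LPS/zVAD/Nec-1. Signals are compared between arrays for 1 gene at a time, never between genes. A signal under log2 6.47, the median of the whole table and called the filter level here, was treated as not separated from background. Where one of the signals lies there, "at least" marks a fold that starts at the filter level instead. A gene is called higher or lower in a comparison when 2 arrays differ by 2-fold or more and its highest signal reached the filter level, as it did for 12203 genes. Of the 10 ligands, 8 reached it on at least 1 array, while Lta and Fasl lay under it on all 4. Array medians ran from 6.41 to 6.52 and Pearson correlations over all 35556 probes from 0.959 to 0.992. Macrophage genes were high on every array, with the mean log2 signal of 9 measured markers between 12.40 and 12.86. The mean of 15 T and NK cell markers, a lineage that makes several of these ligands, lay between 5.60 and 5.77. Of the 15, 10 lay under the filter level on all 4 arrays, where no call can be made. The other 5 reached it, and 0 of them were called in any of the 4 comparisons. Of the 12203 genes, at most 8.24% were higher and 7.2% lower in a comparison, so 0 of 5 is not read as a result. The part of T and NK cells in the ligand results was not tested.

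RefSeq promoters of the ligands whose signals peaked on the LPS/zVAD array and whose ratios carry the results below are shown first. Each window is the 250 bases before the gene's start in GRCm38.p6, written along the gene's own strand, and capitals mark matches to 6 motifs searched on both strands: the kappa B core (GGAANNNCC), AP-1 (TGANTCA), CRE (TGACGTCA), the interferon-stimulated response element core (GAAANNGAA), EGR (GCGNGGGCG) and the TATA box (TATAAA).
Tnf, chr17:35202008-35202257, minus strand: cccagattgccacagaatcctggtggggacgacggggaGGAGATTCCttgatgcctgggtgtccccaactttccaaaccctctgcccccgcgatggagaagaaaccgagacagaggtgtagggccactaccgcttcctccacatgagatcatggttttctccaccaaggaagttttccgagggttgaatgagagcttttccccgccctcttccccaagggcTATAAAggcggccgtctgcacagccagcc
Tnfsf8, chr4:63861285-63861534, minus strand: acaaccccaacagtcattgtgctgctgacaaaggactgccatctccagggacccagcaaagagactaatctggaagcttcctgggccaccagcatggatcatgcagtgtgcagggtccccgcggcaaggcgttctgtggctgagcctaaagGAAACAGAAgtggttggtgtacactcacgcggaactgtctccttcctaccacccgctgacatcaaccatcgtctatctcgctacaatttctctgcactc
Tnfsf14, chr17:57194182-57194431, minus strand: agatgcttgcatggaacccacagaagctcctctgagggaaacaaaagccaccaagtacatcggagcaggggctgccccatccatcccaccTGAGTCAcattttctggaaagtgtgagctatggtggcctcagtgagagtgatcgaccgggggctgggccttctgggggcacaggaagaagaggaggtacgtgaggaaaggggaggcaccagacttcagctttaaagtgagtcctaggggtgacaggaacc
Tnfsf15, chr4:63745060-63745309, minus strand: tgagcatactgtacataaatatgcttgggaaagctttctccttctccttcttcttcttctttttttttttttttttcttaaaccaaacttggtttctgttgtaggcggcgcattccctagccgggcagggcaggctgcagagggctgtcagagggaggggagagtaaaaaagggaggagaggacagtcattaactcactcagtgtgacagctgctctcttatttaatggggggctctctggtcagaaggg
The Tnf window held a match to the reverse strand of the kappa B core (GGAGATTCC as printed) 212 to 204 bases before the start and a TATA box 29 to 24 bases before it. The Tnfsf14 window held an AP-1 match (TGAGTCA) 160 to 154 bases before the start, and the Tnfsf8 window a match to the response element core (GAAACAGAA) 99 to 91 bases before it. The Tnfsf15 window held none of the 6 strings, and no matches overlap. Of the ligand windows not printed, Ltb held a kappa B core match 87 to 79 bases before the start. Lta held a TATA string 167 to 162 bases before it, and Tnfsf10 and Fasl held none. Matches thus did not keep to ligands with large ratios. Of 32851 windows of all genes, 15.7% held the kappa B core, 6.75% the AP-1 string, 7.13% the response element core and 12.4% the TATA string. A match describes these letters only.

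LPS was compared with Control to see which ligands the endotoxin response itself includes. Of the 10 ligands, 6 were higher with LPS and 0 lower. Tnfsf10, Tnfsf8 and Tnfsf15 had the largest ratios, and Tnf, Tnfsf4 and Tnfsf9 followed. Among the filtered genes, 8.24% were higher and 7.2% lower in this comparison. The median log2 ratio of the 10 ligands was 1.59, against -0.10 over all 19938 genes. Over the 8 ligands past the filter, so without Lta and Fasl, it was 2.14, against -0.12 over the filtered genes. In bulk RNA as here, fewer cells that make a transcript and less of it per cell cannot be told apart.

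Tnf encodes the founding ligand, which signals through Tnfrsf1a and Tnfrsf1b. Its log2 signals were 10.75, 12.57, 13.70 and 13.07. Every LPS-treated array lay above Control, and LPS/zVAD was highest. LPS over Control was 3.53-fold (log2 ratio 1.82), rank 434 from the top of the 12203 genes. The table reaches 14.6, and ratios between signals this close to the top can be compressed.

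Lta and Ltb encode lymphotoxin alpha, a soluble ligand of the Tnf receptors, and lymphotoxin beta, which anchors it to the membrane and engages Ltbr. In the RefSeq gene table, Tnf lies between Ltb and Lta with 0 protein-coding genes between neighbours. Lta stood at 5.86, 5.81, 6.13 and 5.96, all under the filter level, so no ratio is read from it. Ltb stood at 7.09, 7.86, 7.23 and 7.56. It was highest with LPS, but its whole range over the 4 arrays was 1.71-fold, under the 2-fold threshold in every comparison.

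Of the 2 death ligands, one had the largest LPS ratio of the family and the other was under the filter level throughout. Tnfsf10 encodes TRAIL, which triggers apoptosis through Tnfrsf10b in mice and is a known interferon-induced gene. Its signals were 6.34, 12.07, 12.03 and 12.24. Control alone was low, and the 3 arrays with LPS lay within 0.21 of each other. LPS over Control was at least 48.3-fold, and the log2 ratio as deposited, 5.73, was rank 35 of 12203. Fasl, the ligand of Fas and a product chiefly of cytotoxic lymphocytes, stood at 5.19, 5.31, 5.24 and 5.33, so its transcript was not separated from background on any array.

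The other 5 ligands are best known as costimulators of T cells. Tnfsf8 encodes the CD30 ligand and Tnfsf15 encodes TL1A, the ligand of Tnfrsf25. They are next to each other on chromosome 4, again with 0 protein-coding genes between them. Tnfsf8 stood at 6.42, 10.79, 11.39 and 10.25. Tnfsf15 stood at 6.64, 10.95, 12.42 and 11.38. Both were low in Control alone, and LPS over Control was at least 20.0-fold for Tnfsf8 (log2 ratio 4.38, rank 70) and 19.8-fold for Tnfsf15 (4.31, rank 73). The Nec-1 array lay below LPS for Tnfsf8 (log2 ratio -0.54) and above it for Tnfsf15 (0.43), both under the 2-fold threshold.

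Tnfsf9, the ligand of the costimulatory receptor Tnfrsf9, stood at 8.29, 9.64, 9.85 and 9.23. That is 2.55-fold for LPS over Control (rank 669). Tnfsf4 encodes the OX40 ligand. It stood at 5.22, 7.68, 6.35 and 6.35 and was above the filter level with LPS alone, at least 2.31-fold over Control. Tnfsf14 encodes LIGHT, which binds Tnfrsf14 and Ltbr, and it was the only ligand past the filter with a negative LPS ratio. It stood at 6.60 in Control and 5.82 with LPS, a log2 ratio of -0.79 that shrinks to -0.13 when counted from the filter level.

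**Figure D1:**
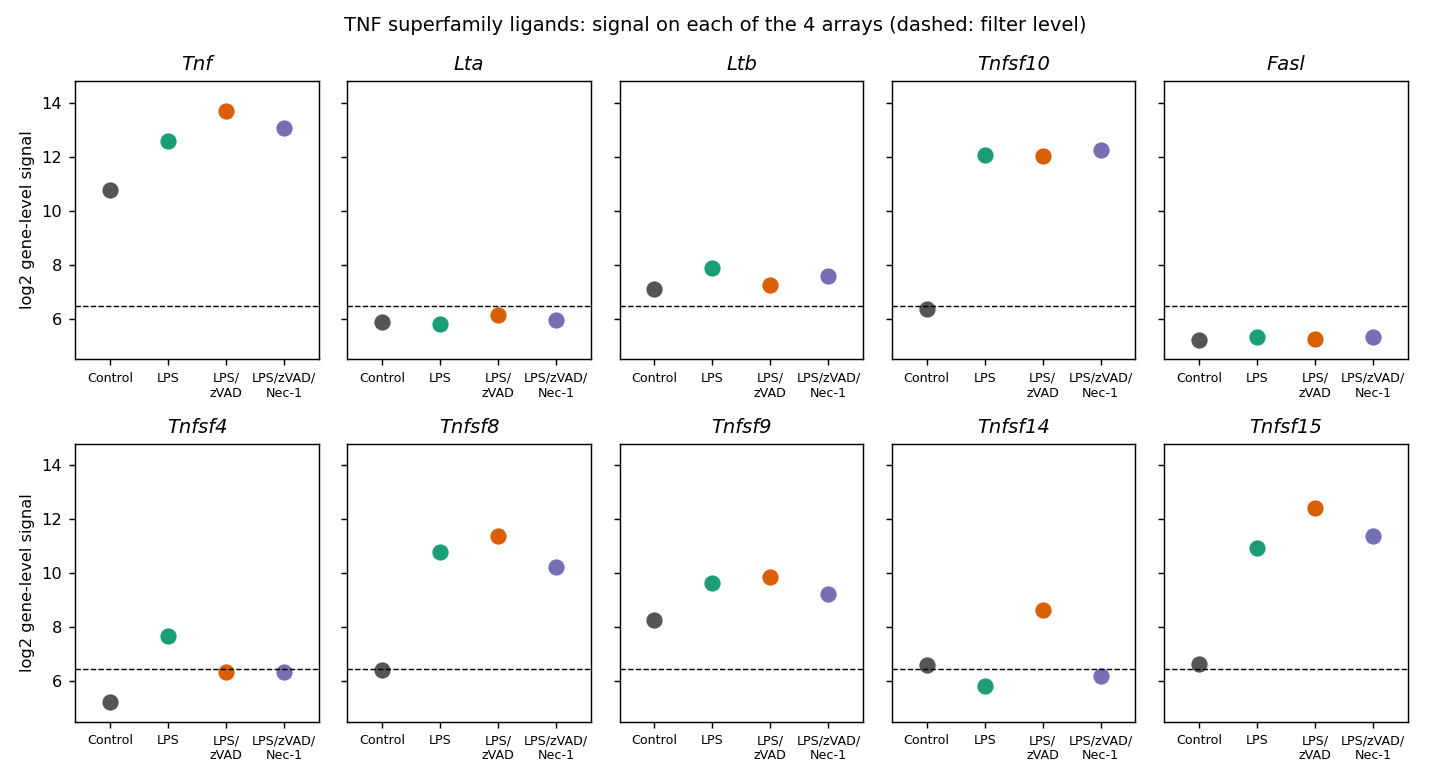
Log2 gene-level signal (y axis) of each ligand on the 4 arrays (x axis), 1 point per array, with the filter level of 6.47 dashed. Tnfsf14 stands above the dashed line by more than 2 log2 units with LPS/zVAD only (8.66), Tnfsf10 is near 12 on all 3 arrays with LPS, and Lta and Fasl stay under the line.

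LPS/zVAD was compared with LPS to see what caspase inhibition added. Higher were 3 ligands, Tnfsf14, Tnfsf15 and Tnf, and 1, Tnfsf4, was lower, while 3.25% of filtered genes were higher and 3.59% lower. Of all genes called here, 47.5% were the higher ones, and 57.8% or 61.1% after quantile or cyclic loess scaling. The median log2 ratio of the 10 ligands was 0.27, against 0.03 over all genes. Over the 8 ligands past the filter it was 0.40, against -0.05 over the filtered genes. Tnfsf14 went from a signal of 5.82 on the LPS array to 8.66 on the LPS/zVAD array, at least 4.55-fold higher. The ratio as deposited, log2 2.84, was rank 31 of 12203. Tnfsf14 was thus low with LPS and high once zVAD was added, and its LPS/zVAD signal also exceeded the Control signal of 6.60 by 2.05.

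Tnfsf15 was 2.78-fold higher with zVAD than with LPS alone (log2 10.95 and 12.42, rank 174), and Tnf was 2.18-fold higher (12.57 and 13.70, rank 320). In both genes zVAD lay on top of a signal that LPS alone already held above Control. Tnfsf8, the neighbour of Tnfsf15, had a log2 ratio of 0.60 and Tnfsf9 one of 0.21, both under the threshold. Tnfsf10 stood at 12.07 and 12.03, a difference of -0.04 whose sign depended on the scaling of the arrays (-0.08 to 0.01). Ltb had a ratio of -0.63.

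Tnfsf4 was the one ligand lower with zVAD, by at least 2.31-fold (log2 7.68 with LPS and 6.35 with LPS/zVAD). The LPS/zVAD signal lay under the filter level. Tnfsf4 and Tnfsf14 thus took opposite directions, and the lower signal of each gene lay under the filter level. Their highest signals, 7.68 for Tnfsf4 and 8.66 for Tnfsf14, lay under the upper quartile of the whole table (8.72). Dendritic cell markers were measured beside Tnfsf4, since dendritic cells are a known source of the OX40 ligand. Of 9 such markers, 5 reached the filter level, and the mean log2 signals of the list were 6.13, 7.31, 7.15 and 7.23. Ccl17 and Ccr7 were the 2 called higher with LPS, beside 8.24% of all filtered genes. Ccl17 was lower with LPS/zVAD than with LPS (log2 ratio -1.60), beside 3.59% of filtered genes. The other 4 markers past the filter differed by less than 2-fold between LPS/zVAD and LPS. Flt3, Xcr1, Clec9a and Cd209a lay under the filter level on all 4 arrays. The part of such cells in the Tnfsf4 result was not tested.

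LPS/zVAD/Nec-1 was compared with LPS/zVAD to see how the signals differed once the RIPK1 inhibitor was added. Without an array of LPS with Nec-1 or of Nec-1 alone, a need for the kinase activity of RIPK1 was not tested. Lower with Nec-1 were 3 ligands, Tnfsf14, Tnfsf8 and Tnfsf15, and 0 were higher, while 3.32% of filtered genes were lower and 1.14% higher. The median log2 ratio of the 10 ligands was -0.39, against 0.05 over all genes. Over the 8 ligands past the filter it was -0.62, against 0.07 over the filtered genes. This comparison shares the LPS/zVAD array with the one before and is not independent of it. Tnfsf14 stood at 8.66 without and 6.18 with Nec-1, at least 4.55-fold lower. The ratio as deposited, -2.48, was rank 27 from the bottom.

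Tnfsf15 was 2.07-fold lower with Nec-1 (12.42 and 11.38), which undid 70.8% of its zVAD difference on the log2 scale. For Tnfsf14 no such share is given, because its LPS and LPS/zVAD/Nec-1 signals were both under the filter level. Tnf stood at 13.70 without and 13.07 with Nec-1, a log2 ratio of -0.63 that undid 56.3% of its zVAD difference and stayed under the 2-fold threshold. Its LPS/zVAD/Nec-1 signal was 2.31 above Control, compared with 1.82 for LPS alone. Tnfsf8 was 2.21-fold lower with Nec-1 (11.39 and 10.25). Its Nec-1 signal lay 0.54 below that of LPS alone. Tnfsf9 had a similar order, at 9.85 without and 9.23 with Nec-1, 0.40 below LPS, with neither difference at the threshold.

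The signal of Tnfsf4 was 6.35 without Nec-1 and 6.35 with it. Both lay under the filter level, so no difference between them could be measured. Tnfsf10, at 12.03 and 12.24, and Ltb, at 7.23 and 7.56, differed by less than 2-fold with Nec-1.

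**Figure D2:**
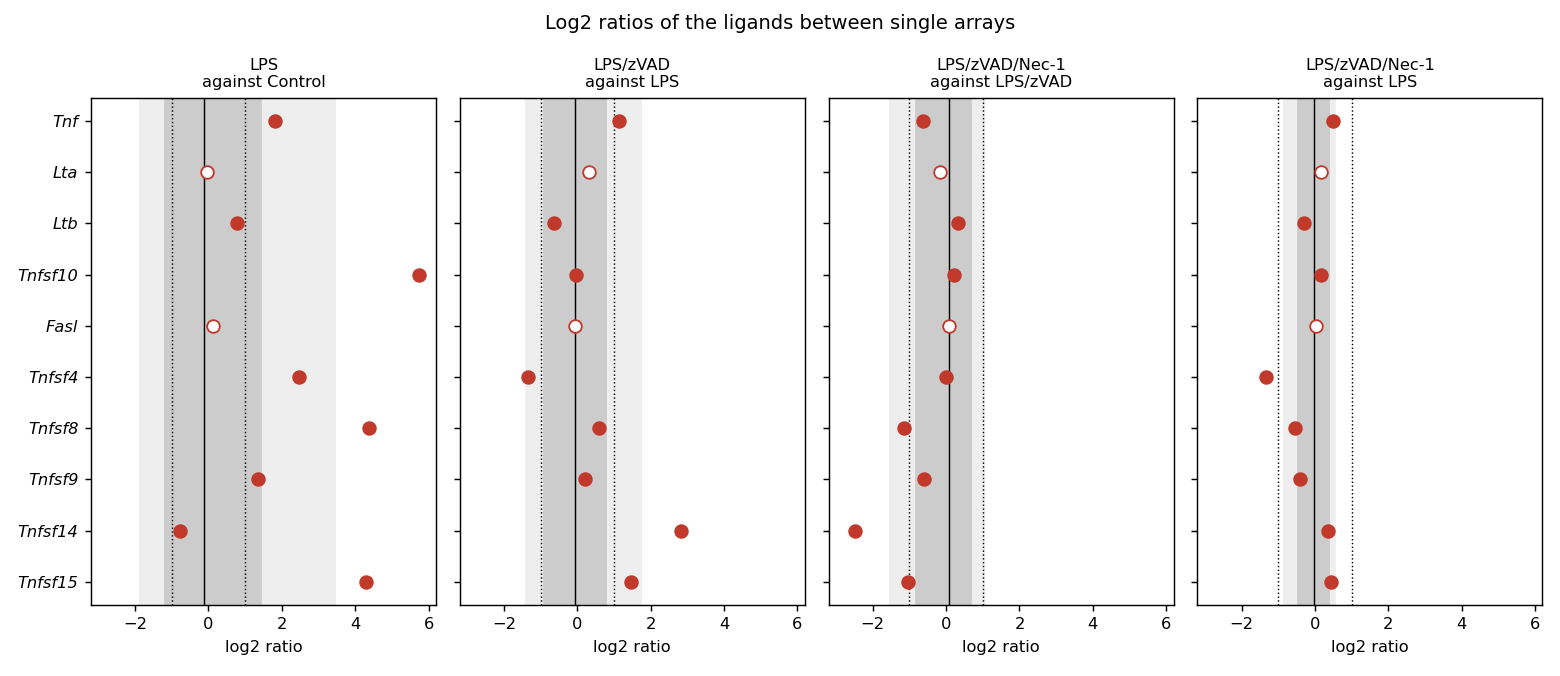
Log2 ratio (x axis) of each ligand (y axis) in the 4 comparisons between single arrays, with open points for Lta and Fasl, which lay under the filter level. Dark bands span percentiles 5 to 95 and light bands 1 to 99 of the 12203 filtered genes, the solid line is their median and the dotted lines are 2-fold. Tnfsf14 lies outside the light band on opposite sides, at 2.84 with zVAD and -2.48 with Nec-1.

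LPS/zVAD/Nec-1 was last set against LPS alone, which shows what the inhibitor pair left. Among the filtered genes, 0.0738% were higher and 0.541% lower, and of the 10 ligands 0 were higher and 1 lower. That ligand was Tnfsf4, at 7.68 and 6.35, at least 2.31-fold lower and rank 29 from the bottom as deposited. Tnfsf4 was above the filter level on the LPS array alone. Its bound of 2.31-fold is thus the same in LPS over Control, with zVAD and here, and is not separate evidence in each. The rank rests in part on a signal under that level. The dendritic cell marker Ccl17 was also lower here (12.61 and 11.28, log2 ratio -1.32). The other 4 dendritic cell markers past the filter differed by less than 2-fold. The median log2 ratio was 0.05 over all 9 and -0.08 over the 5 past the filter. The part of such cells in the Tnfsf4 result was not tested. The other ligands lay between -0.54 (Tnfsf8) and 0.49 (Tnf). With Tnfsf4 included, the median of all 10 was 0.09, and that of the 8 past the filter was -0.06. After cyclic loess scaling the median of all 10 was -0.03, so no direction is read from it. Tnfsf15 was 0.43 above LPS and Tnfsf14 0.36 above it, though both Tnfsf14 signals were under the filter level. With no array of LPS with Nec-1 or of either inhibitor alone, the part of each inhibitor cannot be told apart here.

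Markers of B cells, neutrophils, mast cells and basophils, stroma and endothelium, and erythroid cells were measured on the same arrays. Of 35 measured markers in these 5 lists, 20 reached the filter level. Of all filtered genes, 8.24% were higher and 7.2% lower with LPS, and 3.25% and 3.59% with zVAD. With Nec-1 these shares were 1.14% and 3.32% against LPS/zVAD, and 0.0738% and 0.541% against LPS. With LPS 8 were higher (Blnk, Ly6g, S100a9, Hdc, Dcn, Pecam1, Cdh5 and Kdr) and 0 lower. With zVAD 5 were lower than with LPS alone (Blnk, Mmp8, Hdc, Dcn and Pecam1) and 0 higher, and the calls of Blnk and Mmp8 were lost after quantile or cyclic loess scaling. With Nec-1 0 were called against LPS/zVAD, and against LPS 1 was lower, Mmp8 (log2 ratio -1.15). The mean log2 signals of the stromal and endothelial list, which had the most calls with LPS, were 6.78, 7.68, 7.24 and 7.56. Those of the neutrophil list were 8.16, 8.64, 8.30 and 8.25, and the means of the other 3 lists lay between 5.33 and 6.54. The B cell genes Cd79a, Ms4a1 and Pax5 and the mast cell genes Kit, Cpa3 and Fcer1a lay under the filter level on all 4 arrays. The part of such cells in the ligand results was not tested.

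The receptors of these ligands were measured on the same arrays, since macrophages carry some of them. All 13 had a probe, 11 reached the filter level, and with LPS 4 were higher and 1 lower. Beside them, 8.24% of all filtered genes were higher and 7.2% lower. Tnfrsf1b, the second Tnf receptor, stood at 10.95, 13.41, 12.98 and 13.26. Tnfrsf1a, the receptor with a death domain, stood at 9.98, 10.83, 10.88 and 10.94. Both were lowest in Control, and neither differed by 2-fold among the arrays with LPS. Fas, the receptor of Fasl, was at least 6.71-fold higher with LPS (6.30 and 9.22) and stood at 8.85 and 8.95 on the other 2 LPS arrays. Tnfrsf9, the other receptor higher with LPS beside Tnfrsf14, stood at 6.61, 7.64, 7.61 and 6.75. Its Nec-1 signal lay 0.13 above Control, with log2 ratios of -0.86 against LPS/zVAD and -0.90 against LPS, both under 2-fold.

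Tnfrsf14, the herpesvirus entry mediator and a receptor of Tnfsf14, was low on the array where its ligand was high. It stood at 9.76, 11.39, 9.64 and 11.17. LPS and LPS/zVAD/Nec-1 were high and the other arrays low, while Tnfsf14 stood clear of the filter level on the LPS/zVAD array alone. It was the single receptor of the 13 called with zVAD (log2 ratio -1.75) and with Nec-1 (1.53). Among all filtered genes, 3.59% were lower with zVAD and 1.14% higher with Nec-1. Ltbr, which binds Tnfsf14 and the lymphotoxin heterotrimer, stood at 8.77, 8.98, 8.51 and 8.88, under 2-fold throughout.

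TRAIL has a death receptor and several decoys in mice. Tnfrsf10b, the death receptor, stood at 7.82 in Control and 7.08 with LPS, under 2-fold, and between 6.97 and 7.15 on the other arrays. The decoy gene Tnfrsf22 was the receptor lower with LPS, at 8.67 and 6.86 (log2 ratio -1.81), and Tnfrsf23, another decoy, had a ratio of -0.68. With LPS the ligand thus lay above Control and these 3 receptor genes below it, by 2-fold or more in Tnfrsf22 alone. Tnfrsf25, the receptor of Tnfsf15, and Tnfrsf11b, which encodes the soluble decoy osteoprotegerin, lay under the filter level on all 4 arrays. The receptors of Tnfsf4 and Tnfsf8 (Tnfrsf4 and Tnfrsf8) lay between 6.33 and 6.87, near the filter level.

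**Figure D3:**
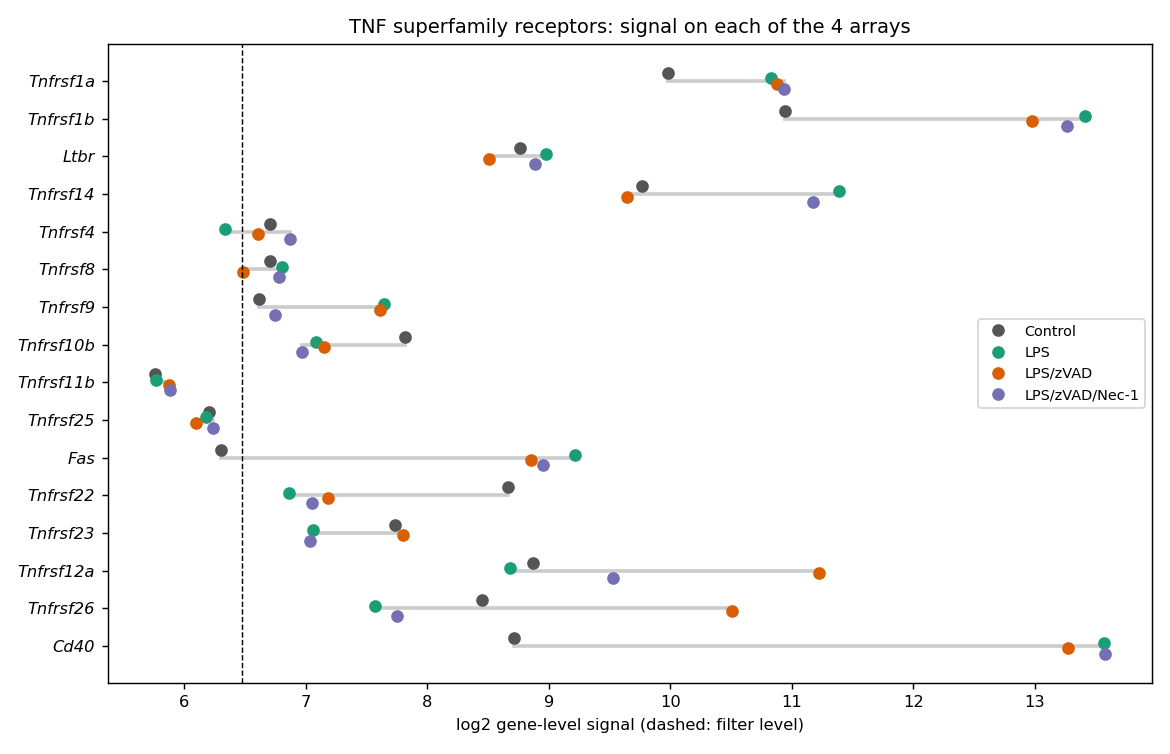
Log2 gene-level signal (x axis) of the 13 receptors of the ligands and of Tnfrsf12a, Tnfrsf26 and Cd40 (y axis), 1 point per array, with the filter level dashed. Tnfrsf14 is low with LPS/zVAD (9.64) and high with LPS (11.39), whereas Tnfrsf26 and Tnfrsf12a are highest with LPS/zVAD (10.51 and 11.22).

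Of 15 other receptors of the superfamily, Cd40, a costimulatory receptor of antigen-presenting cells, was the 1 called with LPS (8.72 in Control and 13.57). Of the 15, 10 reached the filter level, so this count is near the 8.24% of filtered genes higher with LPS. With zVAD, Tnfrsf12a and Tnfrsf26 were higher than with LPS alone, at log2 ratios of 2.55 and 2.94. With Nec-1 both were lower, at -1.70 and -2.76. The shares of all filtered genes were 3.25% higher with zVAD and 3.32% lower with Nec-1. The 6 other measured ligands of the superfamily gave no call in any of the 4 comparisons. Of these, Tnfsf11, the RANK ligand, ranged from 7.82 to 8.14 and Tnfsf13b, the B cell survival factor BAFF, from 7.10 to 7.17, while Tnfsf18, Cd40lg, Cd70 and Eda lay under the filter level on all 4 arrays. Tnfsf12 and Tnfsf13 share a probe with several symbols and were not analysed here.

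Downstream of the receptors, 30 adaptor and signalling genes were measured, and 15 were higher and 0 lower with LPS. Of all filtered genes, 8.24% were higher and 7.2% lower in that comparison. Traf1, an adaptor of several of these receptors, had the largest ratio (4.49), followed by Mlkl, the executor of necroptosis (2.93), Tnfaip3, the ubiquitin editor A20 (2.92), and Cflar, an inhibitor of caspase 8 (2.60). With zVAD 1 of the 30 was higher, Otulin, a deubiquitinase of linear chains (9.61 and 10.66). That count is near the 3.25% of all filtered genes higher with zVAD, so it is not read as a result about the list. With Nec-1 0 were called, beside 1.14% of filtered genes higher and 3.32% lower. The list had medians of 0.95, -0.13 and 0.03 in these 3 comparisons. Ripk1, the target of Nec-1, was not analysed here.

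Genes that process the ligands or control Tnf mRNA were also listed. For their counts, the shares of all filtered genes higher and lower were 8.24% and 7.2% with LPS. They were 3.25% and 3.59% with zVAD, and 1.14% and 3.32% with Nec-1. Of 7 processing genes, 3 were higher with LPS: Rhbdf2, the iRhom that carries the Tnf sheddase to the cell surface (1.85), Furin, a proprotein convertase (1.49), and Sppl2a, which cleaves the membrane stub of Tnf (1.12, under 2-fold after quantile scaling). Furin was also higher with zVAD (11.49 and 12.56), as Tnf was. The sheddase gene Adam17 stood between 11.55 and 11.95 and was not called. Of 10 genes of Tnf mRNA decay and translation, 4 were higher and 2 lower with LPS, including Zc3h12a, an endonuclease of inflammatory transcripts (2.69), and Zfp36, which binds the AU-rich element of Tnf mRNA (2.68). The lower ones were its relatives Zfp36l2 (-1.81) and Zfp36l1 (-1.02, a call lost after centring or cyclic loess scaling). With zVAD, Zfp36l2 (2.44), Rc3h1, which encodes Roquin (9.85 and 11.35), and Map3k8, a kinase needed for Tnf production (1.07), were higher than with LPS alone and Tia1, a translational silencer of Tnf, was lower (-1.17). With Nec-1, Zfp36l2 and Rc3h1 were lower, at -1.90 and -1.07, and Tia1 was higher at 1.01, a call lost after centring or cyclic loess scaling.

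The genes most like each ligand were found by the Euclidean distance, in log2 units over the 4 arrays, between signals centred on each gene's own mean. With 4 arrays, of which 3 had LPS, many genes can lie close. Nearest to Tnf was Prnp, the prion protein gene (distance 0.09; 7.88, 9.70, 10.77 and 10.09), then Mier3 (0.23) and Flrt2 (0.26). Nearest to Tnfsf15 were Ccrl2, a chemerin-binding receptor (0.16), A530040E14Rik (0.21) and Il15ra (0.63). Nearest to Tnfsf14 was the receptor gene Tnfrsf26 (0.23; 8.45, 7.57, 10.51 and 7.75), then Tanc2 (0.41) and Abl2 (0.52). Since 2 of the Tnfsf14 signals were under the filter level and Control was just above it, the order of these neighbours rests in part on background values.

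Tnfsf4 lay nearest to Fscn1, an actin-bundling protein gene (0.21), Tarm1 (0.26) and Mefv, the pyrin gene (0.36). Fscn1 stood at 7.44, 9.87, 8.76 and 8.77, highest with LPS as Tnfsf4 was. The other 3 signals of Tnfsf4 were under the filter level, so its distances rest on background values there. Tnfsf10 lay nearest to Gbp7 (0.22), Cd69 (0.27) and Mx1 (0.29), of which Gbp7 and Mx1 are interferon-induced GTPase genes. Tnfsf8 lay nearest to Cnn3 (0.42), the cytokine gene Il15 (0.48) and Gadd45b (0.53), and Tnfsf9 to Ccng2 (0.08), Rab12 (0.16) and Rgs16 (0.16). Lta, Ltb and Fasl had a range under 2-fold and were not matched.

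**Figure D4:**
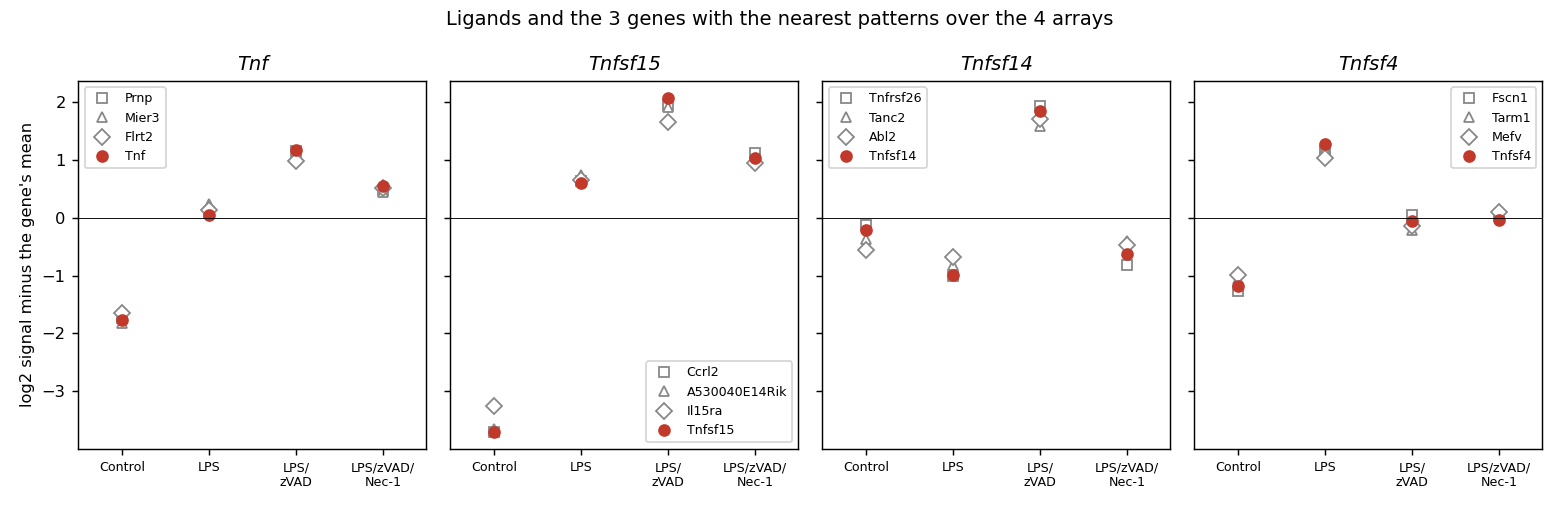
Log2 signal minus the gene's own mean (y axis) on the 4 arrays (x axis) for Tnf, Tnfsf15, Tnfsf14 and Tnfsf4 (filled) and the 3 genes nearest to each (open). Tnfsf14 and its 3 neighbours stand above their means with LPS/zVAD only, and Tnfsf4 and its neighbours are highest with LPS.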

How the data were processed

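RNA of 4 macrophage cultures was measured on 1 Affymetrix array each, and samples were grouped by title. Per the submitters' processing notes, the deposited gene-level log2 signals came from Affymetrix Expression Console. That they are log2 follows from their range (3.10 to 14.6). The sources used here give no version, background correction, normalization or genome build. An unknown normalization can shift every ratio, so other scalings were tried.

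Of 35556 probes, 21789 had 1 symbol in the platform annotation, 1621 several and 12146 none. The probe with the highest mean over 4 arrays stood for a gene. The filter kept 12203 genes and left out 7735. Differences of log2 signals were taken with Python 3.11.15, numpy 2.4.6 and pandas 2.3.3, and scalings with limma 3.58.1 in R 4.3.3. Ratios, calls and pattern distances were tested on simulated data. No test between groups was possible with 1 array each.

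The ligands and 14 gene lists were chosen with earlier results of these data known. Named were all 10 ligands, the other measured ligands, the receptors of the 10, up to 4 called genes of each further list per comparison, and the 3 nearest patterns of each ligand with a 2-fold range. RefSeq promoters (GRCm38.p6) matched 8 ligands by symbol; Tnfsf4 and Tnfsf9 had none. Alternatives covered scaling, probe choice, the filter, low signals and the fold.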

Additional observations from a re-analysis of the deposited data

How the results depend on the processing

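Under 3 other scalings of the arrays (centring on the median, quantile and cyclic loess), the mean of all probes, no filter, and low signals raised to the filter level, the counts of ligands higher and lower in the 4 comparisons did not move. The fold and the filter did move them. At 1.5-fold, 7 ligands were higher with LPS (Ltb joining) and 1 was lower (Tnfsf14). Of all filtered genes, 14.4% were higher and 17.3% lower there, so the 1 lower ligand is not read as a result. With zVAD, 4 were higher (Tnfsf8 joining) and 2 lower (Tnfsf4 and Ltb), beside 7.96% and 13.2% of filtered genes. With Nec-1, 5 were lower than with LPS/zVAD (Tnf and Tnfsf9 joining), beside 8.19% of filtered genes. At 3-fold, 5 ligands were higher with LPS, without Tnfsf9, beside 4.47% of filtered genes. Higher with zVAD was 1 and lower with Nec-1 was 1, in both cases Tnfsf14, beside 1.18% and 0.893% of filtered genes. Lower with zVAD or in LPS/zVAD/Nec-1 against LPS were 0 ligands, beside 0.631% and 0.164% of filtered genes. A filter at the upper quartile (log2 8.72) also removes Tnfsf4, Tnfsf14 and Ltb and leaves 5 ligands. Of these, 5 were higher with LPS, 2 higher with zVAD and 2 lower with Nec-1 than with LPS/zVAD. The same shares of the 6936 genes past this filter were 12.7%, 4.84% and 4.76%. With zVAD or in LPS/zVAD/Nec-1 against LPS, 0 of the 5 ligands were lower, beside 4.79% and 0.62% of those genes. Of all genes called with zVAD, 47.5% were higher as deposited, 42.1% after centring, 57.8% after quantile and 61.1% after cyclic loess scaling. Centring moved the median LPS ratio of all filtered genes from -0.12 to -0.01. In the other lists apart from the marker lists, checked under the 3 scalings after the data were seen, the calls of the 13 receptors did not move. Calls at the threshold did: Traf6, Sppl2a and Mapkapk2 (quantile) and Zfp36l1 (centring and cyclic loess) lost theirs with LPS, and with Nec-1 Tia1 lost its call while Map3k8 gained one (centring and cyclic loess). Traf5 with LPS and Tnfrsf11a with zVAD gained one after centring, and Tnfrsf21 with LPS after quantile scaling. Among the marker lists, gained calls were Mmp8 with LPS (centring and cyclic loess), and Mertk with LPS and Dcn in LPS/zVAD/Nec-1 against LPS (centring). No paired analysis was possible because each group had 1 array. Signals under log2 6.47 limit Tnfsf4, Tnfsf14, Lta and Fasl.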
